A study of Mus musculus with 3 samples.

Results

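The genes described here are 8 loci grouped as structural RNA genes and loci said to match ribosomal RNA (rRNA): LOC118568312, AY036118, Lars2, Gm15564, Mir6236, Rpph1, Rmrp and Rn7sk. They were taken from the deposited tables by gene symbol, with the transcript row of highest summed count standing for each gene, and they make up 8 of the 46316 symbols listed. They were selected on their ratio of counts between the knockout and wild-type libraries, so the comparison of knockout with wild type describes that choice and carries no test. All 8 passed the filter on low counts (a mean of 1 CPM or more, where CPM scales counts to equal library totals), which left 13382 genes. The series holds 3 RNA-seq libraries of C2C12, a mouse muscle precursor line whose cells fuse into myotubes once growth factors are withdrawn, collected 4 days after differentiation began. The WT library comes from unmodified cells, the KO library from cells labelled as a knockout of Drp1 (gene symbol Dnm1l), the GTPase that divides mitochondria, and the rescue library from the same knockout carrying a transiently expressed FLAG-tagged Drp1. The sources used here do not say how the knockout was made or whether it is 1 clone. Each group is 1 library, so no difference below has a replicate check, no spread between replicates can be given, and every interval covers counting error only.

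Total counts over genes were 13894100, 13790431 and 13925296 in the WT, KO and rescue libraries, so depth was nearly equal. The targeted gene Dnm1l had 1823, 1284 and 1481 counts in the same order, which is 0.717-fold in KO against WT, so the RNA counts do not themselves show loss of the target. In rescue they do not separate the tagged transgene from the endogenous transcript. Among markers of muscle, all 15 myotube genes examined passed the filter, with summed counts of 292579, 275442 and 356546 in WT, KO and rescue, and 4 of the 15 were at least 2-fold lower in KO. Of 6 myoblast markers 5 passed, summing to 15222, 6903 and 6872, with 2 at least 2-fold lower in KO and Pax7 at or near 0. Of 8 fibroblast markers 6 passed, summing to 53382, 105521 and 87007, with 3 at least 2-fold higher and 1 lower in KO, and Thy1 and Lum at or near 0. Markers of macrophages summed to 23, 58 and 42 counts and those of endothelial cells to 2, 1 and 0. The myoblast and fibroblast sums thus differed between WT and KO, as did the loci described below, and their part in those differences was not tested. In bulk RNA, a change in the number of cells of a type and a change in RNA per cell cannot be told apart.

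Several of these loci encode, or share sequence with, RNAs that work without being translated. Rpph1 is the RNA subunit of RNase P, which trims the 5′ end of precursor tRNAs, and Rmrp is the RNA subunit of the related enzyme RNase MRP, which cuts precursor ribosomal RNA. Rn7sk (7SK RNA) holds the elongation kinase P-TEFb in an inactive complex together with Hexim1, Larp7 and Mepce. These RNAs are made by RNA polymerase III and carry no poly(A) tail, so their level in an mRNA library depends on how RNA was selected, which the labels do not state beyond total RNA. Lars2 encodes the mitochondrial leucyl-tRNA synthetase, which charges leucine onto mitochondrial tRNA. Ribosomal RNA makes up most of a cell's RNA, and loci that hold pieces of its sequence can collect reads from it.

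The mature RNAs of the 3 polymerase III genes are printed first, because much of their sequence is also found in transcripts of other genes. Some of those genes overlap at the same place on the genome, and others hold copies elsewhere. Reads from such stretches can be assigned to more than 1 gene. The sequences are GENCODE M21 transcripts on GRCm38. For Rpph1 and Rn7sk the first 300 bases are printed and for Rmrp the whole RNA. Capitals mark bases inside a 25-base window that is also found, on either strand, in a transcript of another gene.
Rpph1: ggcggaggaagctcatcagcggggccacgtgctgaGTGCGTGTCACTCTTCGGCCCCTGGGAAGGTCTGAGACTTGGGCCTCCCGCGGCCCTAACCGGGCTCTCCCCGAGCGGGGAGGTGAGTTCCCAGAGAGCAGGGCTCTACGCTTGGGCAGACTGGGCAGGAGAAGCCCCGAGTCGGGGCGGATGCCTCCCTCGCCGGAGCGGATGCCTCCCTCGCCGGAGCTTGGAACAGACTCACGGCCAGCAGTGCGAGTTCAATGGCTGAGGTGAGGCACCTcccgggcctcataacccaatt
Rmrp: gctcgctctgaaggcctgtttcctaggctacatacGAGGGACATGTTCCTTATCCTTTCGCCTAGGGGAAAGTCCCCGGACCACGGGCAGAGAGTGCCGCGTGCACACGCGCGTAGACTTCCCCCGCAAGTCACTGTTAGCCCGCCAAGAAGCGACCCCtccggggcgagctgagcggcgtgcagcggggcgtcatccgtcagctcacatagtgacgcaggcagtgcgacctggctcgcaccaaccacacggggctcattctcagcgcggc
Rn7sk: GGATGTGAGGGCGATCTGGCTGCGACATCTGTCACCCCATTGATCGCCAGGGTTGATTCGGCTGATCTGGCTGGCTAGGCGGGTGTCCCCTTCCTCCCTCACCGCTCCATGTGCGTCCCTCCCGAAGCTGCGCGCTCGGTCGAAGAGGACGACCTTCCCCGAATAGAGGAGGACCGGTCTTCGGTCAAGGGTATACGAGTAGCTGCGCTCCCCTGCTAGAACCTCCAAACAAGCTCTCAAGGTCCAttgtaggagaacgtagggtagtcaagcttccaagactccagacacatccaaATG
Rpph1 (chr14:50807449-50807767, minus strand) had 244 of 319 bases in such windows, shared with 7 other genes. Most of them, 233 bases, lie in the first exon of a transcript of Ccnb1ip1 on the same strand, and 103 bases match Rprl3, another RNase P RNA gene. In Rmrp (chr4:43492788-43493058, minus strand) 124 of 271 bases were shared, all with a transcript of Ccdc107 that runs across it on the opposite strand. Rn7sk (chr9:78175303-78175633, minus strand) had 280 of 331 bases in shared windows, which occur in 46 other genes. The annotated genes with most of it were Gm24447, with 241 bases, and Gm26315, with 235 bases. In the deposited tables Rn7sk was the only row named for 7SK. Whether those copies have a row there under another name was not checked.

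Mir6236 is annotated as a microRNA gene on the plus strand of chromosome 9. The mature sequence below is from RefSeq (GRCm38.p6, chr9:110281353-110281371) and is shown because its seed sets the miRNA family, with the seed, bases 2 to 8, in capitals.
mmu-miR-6236: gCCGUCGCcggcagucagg
The seed was held by 1 of 1738 mature mouse entries in the RefSeq table, which is miR-6236 itself. The GENCODE hairpin of Mir6236 shared no 25-base window with a transcript of another gene. A match of Mir6236 to precursor rRNA was not tested.

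Lars2 and Gm15564 lie on different chromosomes, Lars2 at chr9:123366927-123462666 on the plus strand and Gm15564, a noncoding RNA antisense to Kpna1, at chr16:35966752-35983230 on the minus strand. Their transcripts nevertheless share an unbroken run of 52 bases. Its first 30 are shown because a read lying wholly inside the run has the same bases in both transcripts.
Run shared by Gm15564 and Lars2, first 30 bases: gaattcaccaagcgttggattgttcaccca
In Lars2 the run lies in the 3′ untranslated region, 370 bases after the stop codon, at positions 3278 to 3329 of a 3894-base transcript (chr9:123462048-123462099). In Gm15564 it takes positions 179 to 230 of a 402-base transcript, at chr16:35981745-35983052. On the genome the run is thus split by an intron in Gm15564 but unbroken in Lars2. How reads inside it were aligned was not tested. The Gm15564 row counted here has 1280 bases, and its own sequence was not used. The whole run was found in 2 GENCODE genes, these 2 alone, and its first 30 bases in 3. Lars2 shared 132 of its 3894 bases with other genes in all, 116 of them with AA474408.

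The grouping as rRNA-matching was checked against sequence only in part. Among the loci grouped so, a 25-base window shared with a transcript typed as rRNA was found for AY036118 only. Its GENCODE transcript (923 bases, chr17:39847113-39848035, minus strand) lies wholly inside CT010467.1, which GENCODE types as rRNA, at positions 167 to 1089 of 1849, and is the reverse complement of positions 156 to 1078 of Gm42418. The RefSeq model of AY036118, the kind counted in the deposited tables, was compared by gene span only, introns included. Its span overlaps that of CT010467.1 by 716 bases but the GENCODE span of AY036118 by 0 bases. The span of CT010467.1 (chr17:39846353-39848827) is longer than its 1849-base transcript. Exons were not compared, so how many of the 716 bases lie in the rRNA transcript was not tested. A sequence of LOC118568312 was not used here, so its match to ribosomal RNA was not tested. The tables describe it as a protein transport protein Sec31-like mRNA of 1633 bases. The GENCODE transcripts of Lars2, Gm15564 and Mir6236 shared no 25-base window with CT010467.1. They were not compared with a precursor rRNA sequence, so a match to other parts of ribosomal RNA was not tested.

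The 8 genes spanned a wide range of levels, which were compared per length in RPKM, read counts scaled by transcript length and library total. LOC118568312 was highest, at 788 RPKM in WT, 1580 in KO and 1267 in rescue. Lars2 followed with 51.2, 104 and 77.4 RPKM, and Mir6236 with 39.1, 101 and 56.0 RPKM. Rn7sk came next at 14.8, 19.2 and 18.5 RPKM. Gm15564 stood at 7.78, 17.0 and 12.8 RPKM and Rpph1 at 3.99, 10.99 and 8.15 RPKM. Rmrp had 2.13, 5.03 and 3.52 RPKM, and AY036118 was lowest with 0.970, 1.92 and 1.73 RPKM. This order of levels was the same in the 3 libraries, and for each gene WT was lowest, rescue intermediate and KO highest. Lars2 and Mir6236 were nearest to each other in KO, at 104 and 101 RPKM.

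**Figure D1:**
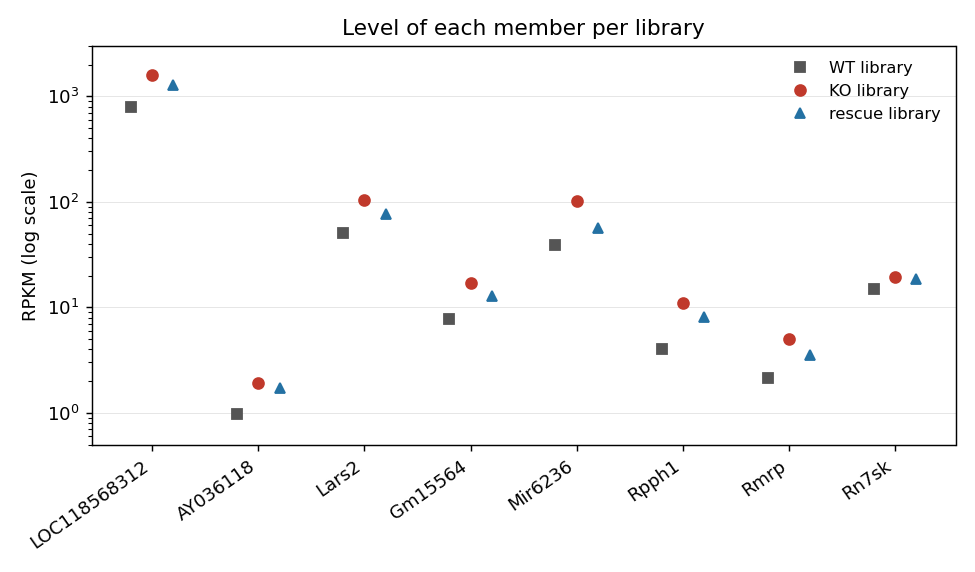
Level of each of the 8 genes in RPKM on a log axis, with 1 point per library (grey squares WT, red circles KO, blue triangles rescue) and no error bars because each group is 1 library. LOC118568312 lies at 788 RPKM or more in every library, AY036118 lies below 2 RPKM in every library, and each gene is lowest in WT and highest in KO.

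Together the 8 genes took 0.788% of gene counts in WT (exact Clopper-Pearson 95% interval 0.783% to 0.793%), 1.63% in KO and 1.25% in rescue, which is 109463, 224381 and 173532 counts. Most of this was LOC118568312: the other 7 genes, chiefly Lars2, took 0.124%, 0.260% and 0.186%. Rpph1, Rmrp and Rn7sk together took 0.00351%, 0.00601% and 0.00500% of counts. These 3 RNAs, abundant in cells, were thus a trace of each library.

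Differences between libraries are given as log2 ratios of counts scaled by TMM (trimmed mean of M values, which sets most genes equal) with 0.5 added to each count. In KO against WT the 8 log2 ratios ran from 0.43 to 1.51 with a median of 1.13, where the median of all tested genes was 0.000539. Of the 8 genes 7 were at least 2-fold higher in KO, which was the basis of their choice. The same held for 5.35% of all tested genes. None of the 8 was 2-fold lower, as were 4.07% of tested genes. For 5 of them, LOC118568312, Lars2, Gm15564, Mir6236 and Rpph1, the whole counting interval lay at 2-fold or more, against 2.62% of tested genes. Just inside the 2-fold line stood AY036118 at 2.05-fold and LOC118568312 at 2.08-fold, and Rn7sk lay outside it at 1.35-fold.

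**Figure D2:**
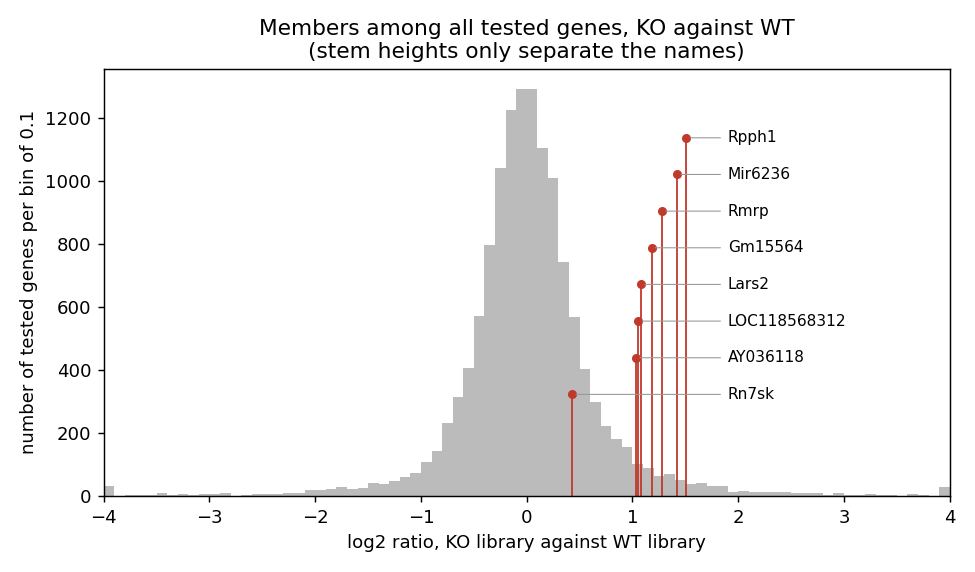
Histogram of the log2 ratio of KO against WT over the 13382 tested genes in bins of 0.1 (end bins hold all genes beyond 4 in size), with a red stem at each of the 8 genes; stem heights carry no value. Rn7sk sits at 0.43 inside the bulk of genes and the other 7 sit between 1.04 and 1.51 on its right flank.

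The WT library held 92273 counts of LOC118568312, KO held 188507 and rescue 147607. KO was highest and WT lowest, with rescue nearer to KO. By count it ranked 3 of all genes in WT, 1 in KO and 2 in rescue. The log2 ratio of KO against WT was 1.06 (95% counting interval 1.04 to 1.07) and that of rescue against KO was −0.35 (−0.36 to −0.34). AY036118, listed next to it in the gene order of the tables, had 98, 198 and 174 counts. WT was again lowest, and the log2 ratio of KO against WT was 1.04 (0.68 to 1.40). Rescue against KO was −0.18, with an interval of −0.48 to 0.12 that includes no difference. The flanking pheromone genes Esp15 and Esp38 had 0 counts in every library.

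For Lars2 the counts in WT, KO and rescue were 15546, 32344 and 23396, again lowest in WT and highest in KO. Its 3 transcript rows differed by at most 1 count, so they hold the same reads and are not separate measurements. The log2 ratio of KO against WT was 1.08 (1.05 to 1.11), and rescue was lower than KO by 0.46 on the log2 scale and higher than WT by 0.62. The neighbouring genes did not share this pattern. Limd1, which encodes a LIM-domain scaffold protein, had 1012, 986 and 974 counts. Tmem158 had 605, 302 and 421 counts, lowest in KO where Lars2 was highest. The other end of the comparison is the synthetase family. The 16 other mitochondrial aminoacyl-tRNA synthetases had median levels of 1.11, 1.16 and 1.23 RPKM and at most 4.95, 5.43 and 5.50 RPKM, that of Iars2, the mitochondrial isoleucyl enzyme. Lars2 thus stood above the highest of them in every library. Among these 16 and the cytosolic leucyl enzyme Lars, 0 of 17 were 2-fold higher or lower in KO, and the median log2 ratio was −0.01. The members of that set with the widest ratios were Vars2, with 238, 378 and 313 counts (log2 ratio 0.69), and Lars, with 2135, 3046 and 3072 counts (0.54).

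Gm15564 had 714 counts in the WT library, 1592 in the KO library and 1168 in the rescue library, in the same order. The log2 ratio of KO against WT was 1.18 (1.05 to 1.31), and rescue was below KO by a log2 ratio of −0.44 (−0.55 to −0.33). A transcript row of 1372 bases gave the same counts, whereas another row, of 968 bases, held 1, 0 and 0 counts. Kpna1, the importin gene on the opposite strand, had 2171, 2752 and 3030 counts, a log2 ratio of 0.37 for KO against WT, and was highest in rescue. The sources used here do not state whether counting used strand.

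Counts were also set against those of LOC118568312 in the same library. For every 100 reads counted on LOC118568312, Lars2 had 16.8 in WT (16.6 to 17.1), 17.2 in KO (17.0 to 17.4) and 15.9 in rescue (15.6 to 16.1). The rescue value lay below the other two beyond counting error. Gm15564 had 0.774, 0.845 and 0.791 reads per 100, AY036118 had 0.106, 0.105 and 0.118, and Rmrp had 0.0455, 0.0536 and 0.0467, each with overlapping counting intervals. Rpph1 had 0.101, 0.138 and 0.128. Mir6236 was highest in KO, with 0.374, 0.483 and 0.333, and Rn7sk was highest in WT, with 0.381, 0.248 and 0.297. These are ratios of raw counts within a library, not corrected for length, and the 3 libraries are too few for a correlation.

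On the hairpin row of Mir6236, WT had 345 counts, KO 911 and rescue 491. KO stood apart from the other libraries, at 2.69-fold WT and 1.85-fold rescue. The log2 ratio of KO against WT was 1.43 (1.25 to 1.61) and that of rescue against KO was −0.88 (−1.05 to −0.72). Among the 8 genes Mir6236 alone was at least 1.5-fold lower in rescue than in KO, as were 2.76% of tested genes, and 0 of the 8 reached 2-fold, as did 0.568%. The separate 19-base row of the mature miRNA held 261, 672 and 400 counts. These lie inside the hairpin, so the 2 rows share reads. A library of this kind does not isolate small RNAs, and reads on the hairpin do not measure the mature miRNA. The next gene in the tables, Elp6, had 75, 65 and 54 counts.

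**Figure D3:**
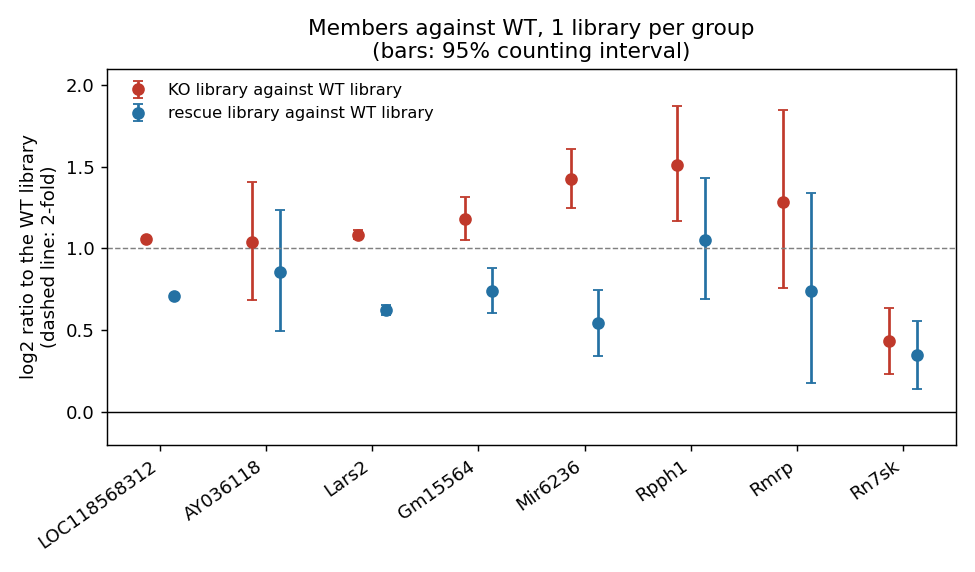
Log2 ratio of the KO library (red) and the rescue library (blue) to the WT library for each of the 8 genes, with bars for the 95% counting interval; both ratios share the WT library. Every point lies above 0, the KO points of 7 genes lie above the dashed 2-fold line, and among the rescue points that of Rpph1, at 1.05, alone lies above it.

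For Rpph1 there were 93 counts with WT cells, 261 with KO and 189 with rescue. WT was lowest, and the log2 ratio of KO against WT, 1.51 (1.17 to 1.87), was the largest of the 8. Rescue was lower than KO, at −0.46 (−0.74 to −0.18), and remained 2.07-fold above WT. Ccnb1ip1, whose first exon overlaps most of Rpph1, had 7, 19 and 15 counts, and how reads lying in both were assigned is not given. Parp2, which starts just upstream on the other strand and encodes a poly(ADP-ribose) polymerase of DNA repair, had 322, 429 and 368 counts, a log2 ratio of 0.44. Adding the other RNase P RNA rows, of which Rprl3 alone had counts, gave 102, 287 and 208.

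Counts of Rmrp were the fewest of the 8 genes, 42 in WT, 101 in KO and 69 in rescue, with KO highest. The log2 ratio of KO against WT was 1.28, with a counting interval from 0.76 to 1.85 that reaches below 2-fold. Rescue against KO was −0.54 (−1.01 to −0.09). Ccdc107, which overlaps Rmrp on the opposite strand, had 246, 293 and 334 counts and was highest in rescue.

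Rn7sk had 352 counts in WT and 467 and 438 in KO and rescue, so the latter libraries were close. It had the smallest ratio of the 8, 0.43 (0.23 to 0.64) for KO against WT, and 17.4% of all tested genes stood above it. KO and rescue were not separated, at −0.09 (−0.28 to 0.11). Its neighbours Cilk1, a kinase of the primary cilium, and Gsta4, a glutathione transferase, had log2 ratios of 0.28 and 0.01.

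The rescue library could be set against both others, with the limit that each comparison shares a library with the one used for the choice. Rescue was higher than WT for 8 of 8 genes, from 1.27-fold for Rn7sk to 2.07-fold for Rpph1. Their median log2 ratio was 0.73, where that of all tested genes was 0.0143. Of the 8, 1 was at least 2-fold higher than WT, against 4.61% of tested genes, and 6 were at least 1.5-fold higher, against 10.5%. Rescue was lower than KO for 8 of 8, with a median log2 ratio of −0.45, where that of all tested genes was 0.00718. For AY036118 and Rn7sk the counting interval of that ratio included 0.

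The upstream stretches of Rpph1 and Rmrp are shown because polymerase III genes of this kind are driven by elements outside the transcript, a TATA box and a proximal sequence element with a distal octamer. Both were read from the RefSeq promoter windows (GRCm38.p6) of the divergent neighbours Parp2 and Ccdc107, on the minus strand, and stop before the first exon of the neighbour's main GENCODE transcript. Another transcript of Ccdc107 starts inside Rmrp, so the Rmrp stretch lies within that gene. Capitals mark matches to a search on both strands for the letters TTATA, the core of the TATA box. They also mark matches to the octamer ATTTGCAT and, for the proximal sequence element, to ACCNTNA, where N is any base.
Upstream of Rpph1, chr14:50807772-50807840: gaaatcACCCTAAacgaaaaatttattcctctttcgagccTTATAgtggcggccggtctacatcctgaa
Upstream of Rmrp, chr4:43493115-43493361: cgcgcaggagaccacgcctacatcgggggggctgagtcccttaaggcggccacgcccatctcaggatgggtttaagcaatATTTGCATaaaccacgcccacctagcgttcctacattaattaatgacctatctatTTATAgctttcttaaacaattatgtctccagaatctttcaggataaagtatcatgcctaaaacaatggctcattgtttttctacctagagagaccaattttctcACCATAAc
Distances are counted from the RefSeq start of each RNA. In Rpph1, the TATA core lay 25 to 29 bases upstream and the proximal element match 57 to 63 bases upstream, with the octamer on the opposite strand at 89 to 96 bases, beyond the printed stretch. Rmrp also had the proximal element match at 57 to 63 bases, with the TATA core at 163 to 167 and the octamer at 215 to 222 bases. The window of Rmrp begins 56 bases upstream, so bases nearer to the start were not searched. No match overlapped a match to another of these motifs. Over 32851 RefSeq promoter windows of the same length, the shares holding the TATA core, the proximal element match and the octamer were 13.8%, 16.2% and 0.956% for the 144 bases searched at Rpph1. For the 250 bases searched at Rmrp they were 22.8%, 28.2% and 1.60%. A match is a description of letters and not a measured binding site.

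The protein partners of these RNAs were set beside them. Of 11 proteins of RNase P and RNase MRP 10 were tested, and 0 were 2-fold higher or lower in KO. Their median log2 ratio of KO against WT was −0.39, with 2 above 0 and 8 below, whereas Rpph1 and Rmrp were at 1.51 and 1.28. Rpp25l, an RNA-binding subunit, had 243, 133 and 204 counts (−0.84), and Pop1, the largest shared subunit, had 210, 115 and 119 counts (−0.84). In rescue against KO the median of the 10 was 0.22, with all 10 above 0. Most of these proteins thus had lower counts in KO than in WT, and all 10 had higher counts in rescue than in KO, by less than 2-fold in each case. Short protein-coding rows as a whole had the same directions: the 633 under 1000 bases had a median of −0.21 for KO against WT and 0.25 for rescue against KO. The part of length in the values of these proteins was not tested.

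For 7SK, 12 genes of its complex and of P-TEFb had a median log2 ratio of 0.13, with 8 above 0, 4 below and 0 at 2-fold. Hexim1, the inhibitor that 7SK RNA brings to P-TEFb, had 933, 498 and 591 counts, a log2 ratio of −0.88. Ell2, an elongation factor, had 139, 241 and 202 counts, at 0.82. Hexim1 was therefore highest in WT while Rn7sk was lowest there. Of 31 genes of RNA polymerase III and its factors, 0 were 2-fold higher or lower and the median was −0.06. Snapc5, a subunit of the complex that binds the proximal sequence element, had 219, 125 and 179 counts (−0.78). Polr3gl, an alternative polymerase III subunit, had 298, 494 and 441 counts (0.75).

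The genes that make and process ribosomal RNA showed no 2-fold differences either. The 15 tested genes of RNA polymerase I and its factors had a median log2 ratio of −0.03. Myc, a transcription factor that promotes ribosome production, had 657, 1044 and 942 counts (0.69), and Cd3eap, a polymerase I subunit, had 406, 273 and 305 counts (−0.55). The 26 rRNA processing factors had a median of −0.10, with 19 below 0. Nhp2 and Dkc1, proteins of the particles that convert uridine to pseudouridine in rRNA, had 703, 478 and 584 counts and 674, 473 and 563 counts.

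**Figure D4:**
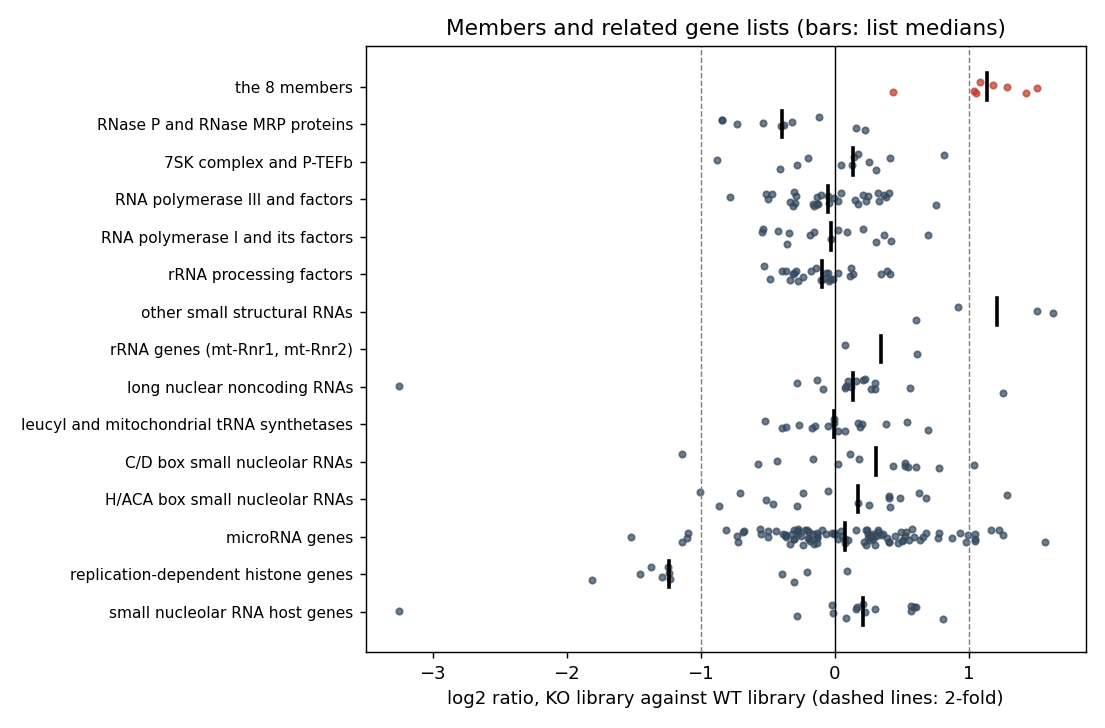
Log2 ratio of KO against WT for the 8 genes (red) and for each tested gene of related lists (dark points), 1 row per list, with black bars at list medians and dashed lines at 2-fold. The 8 genes, chosen on this ratio, have a median of 1.13. The 4 other small structural RNAs that passed the filter have 1.21, a median that depends on that filter. RNase P and RNase MRP proteins have −0.39 and replication-dependent histone genes −1.24.

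Annotated ribosomal RNA rows gave little to compare with. Of 62 nuclear rows typed as rRNA, 3 had a count, summing to 88, 52 and 74. Nearly all of that was the 5S row LOC115490001, with 88, 49 and 74 counts, a log2 ratio of −0.81 (−1.35 to −0.30) that goes against the direction of the 8 genes. The mitochondrial ribosomal RNAs mt-Rnr1 and mt-Rnr2 had 15299, 23034 and 24951 counts and 39155, 40570 and 47000 counts, log2 ratios of 0.62 and 0.08, and both were highest in rescue. Ribosomal RNA of the nucleus thus has almost no counts under its own name in these tables, while mitochondrial rRNA has at least 15299 counts per gene and library.

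Other small structural RNAs were few. Of 30 looked for, 20 had a row and 4 passed the filter, all 4 above 0 with a median log2 ratio of 1.21, and 2 of them 2-fold higher. Rn7s1, a gene of the 7SL RNA of the signal recognition particle, had 32, 98 and 90 counts (1.63), and its copy Rn7s2 had 60, 90 and 74 (0.61). Rprl3, the RNase P RNA gene that shares sequence with Rpph1, had 9, 26 and 19 counts (1.51). Bc1, a cytoplasmic polymerase III transcript best known from neurons, had 328, 608 and 2000 counts (0.91) and was by far highest in rescue, where the 8 genes were intermediate. Small nucleolar RNAs stood closer to the rest: the 14 tested C/D box genes had a median of 0.31 and the 17 tested H/ACA box genes 0.17, each with 1 gene 2-fold higher and 1 lower. Over all tested genes the shares were 5.35% higher and 4.07% lower. Snord22 had 23, 47 and 43 counts, Snord16a 50, 22 and 23, Snora43 11, 27 and 20, and Snora64 25, 12 and 27. The counting interval of Snora64 for KO against WT, −2.16 to 0.01, includes no difference. Cajal body and spliceosomal RNA rows had at most 20 and 22 counts summed in any library and none passed the filter. A filter on the mean of the 3 libraries keeps a low gene more easily where 1 library is high, so these medians describe the genes that passed and not the families.

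Of the 8 rows, 4 are shorter than 400 bases, so values of other short rows are given. The 233 other tested rows under 400 bases had a median log2 ratio of 0.08, with 15 of them, or 6.44%, at least 2-fold higher in KO and 11 lower. The 216 noncoding rows among them had 15 higher, or 6.94%, and 8 lower. With all tested genes in 10 bins of equal size by length, the shortest bin had a median of −0.12 and the longest, with a median length of 9767.5 bases, had 0.20. The lowest bin median, −0.15, was that of the next to shortest bin. The 8 genes were chosen on this ratio, so their place above these medians describes the choice, and the part of length in their values was not tested.

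**Figure D5:**
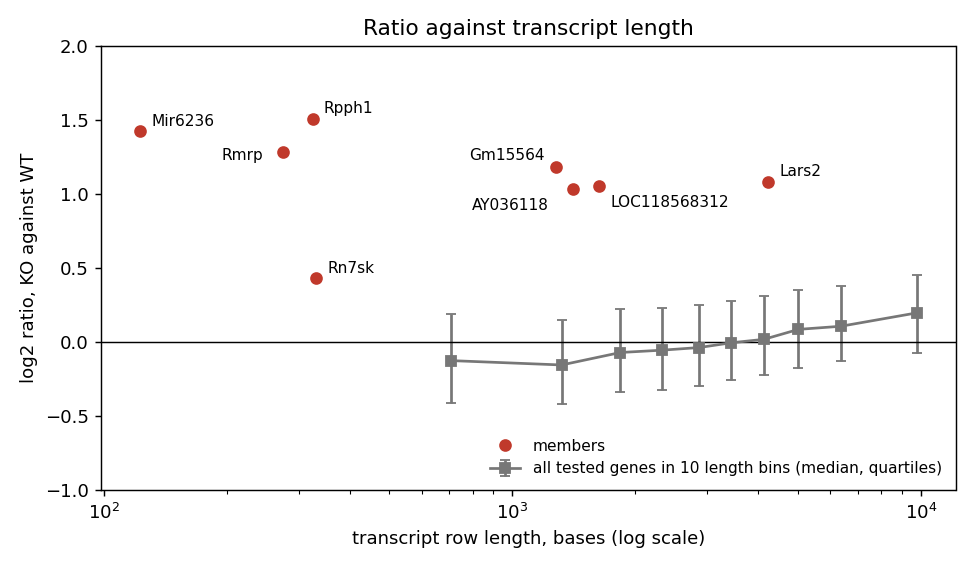
Log2 ratio of KO against WT against the length of the transcript row in bases (log axis), with red points for the 8 genes and grey squares for the median of each of 10 length bins of all tested genes, bars giving the quartiles. The bin median is −0.12 in the shortest bin, −0.15 in the next and 0.20 in the longest; the 8 genes, from 123 to 4237 bases, were chosen on the ratio plotted.

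Genes outside this set with the nearest pattern were sought by the distance between their pair of log2 ratios (KO against WT, rescue against KO) and the median pair of the 8 genes, 1.13 and −0.45, over 9249 genes with at least 200 counts in their highest library. The 5 nearest lay within 0.054. Gbp7, an interferon-induced GTPase, had 444, 940 and 688 counts, and Igsf3, an immunoglobulin-domain membrane protein, had 587, 1232 and 899. Lifr, the receptor of leukaemia inhibitory factor, had 1375, 2945 and 2206 counts. Per2, a core clock repressor, had 102, 226 and 167, and Tle2, a transcriptional corepressor, had 208, 435 and 324. These 5 are protein-coding genes, and their likeness to the 8 follows from how they were sought.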

How the data were processed

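RNA-seq of C2C12 cells was compared between 3 libraries, 1 per group. Reads were processed with cutadapt 1.9.1, HISAT2 2.2.1 and featureCounts 2.0.0 on GRCm39, per the submitters' processing notes. The sources used here do not give their settings, strand or the handling of reads with several matches. The authors deposited raw counts for 139023 transcript rows per library. The deposited RPKM and TPM values were recomputed from those counts and row lengths and matched to within 4.97515e-06 and 4.40208e-06; they are scaled to the total over all rows (71715905, 73080280 and 71339709 in WT, KO and rescue), in which reads of overlapping transcripts count repeatedly.

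Each gene was represented by its row of highest summed count. Counts were scaled by TMM (edgeR 4.0.16, R 4.3.3; factors 1.01, 1.00 and 0.987), 0.5 was added, and genes with a mean of 1 CPM or more were kept. Ratios carry exact 95% Clopper-Pearson counting intervals and cover counting error only, since reads amplified by PCR can be copies of 1 molecule. The ratio step was tested on simulated data. With 1 library per group no p-value was computed, and "2-fold" denotes a size only.

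All 8 loci are named. From each related gene list, genes at 2-fold or more in KO against WT are named, up to 4 per direction, and otherwise the 2 with the largest ratio; Larp7 and Mepce are mentioned as background. The 5 genes nearest in pattern and neighbouring genes are also named. The members and lists were chosen with earlier results of these data known. Sequences came from RefSeq (GRCm38.p6) and GENCODE M21 (GRCm38), a different build from that of the counts: 7 of the 8 genes matched a GENCODE transcript and 1 a miRNA entry. Alternatives were other scalings, filters, pseudocounts and choices of transcript row. The hairpin sequence of Mir6236 is not reported here.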

Additional observations from a re-analysis of the deposited data

How the results depend on the processing

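With 1 library per group, no result has a replicate check and leaving out a replicate was not possible. No paired analysis was possible because each group holds 1 library. The count of 7 of the 8 genes at 2-fold or more in KO was 7 under each of 7 alternatives: 3 other scalings, the sum over transcript rows, the longest row, a pseudocount of 2 and a threshold of 1.5-fold. The lower threshold could not reduce this count, and for most of the 8 genes the row choices hold the same reads. Because the genes were chosen on this ratio, the count describes that choice under every setting. Without the filter on low counts, 3334 genes were 2-fold higher in KO (14.1% of 23623) in place of 716, since more low genes enter. With counts summed over transcript rows, the 8 genes took 0.197%, 0.399% and 0.311% of counts in the 3 libraries, because genes with many overlapping rows then weigh more in the total. Of 144 recomputed ratios of single genes, 136 stayed within their counting interval and 8 moved beyond it, all of them for LOC118568312 or Lars2, whose intervals are narrow; none changed sign. Of 273 list medians 3 moved, among them that of other small structural RNAs for KO against WT, 0.03 without the filter. Depth limits Rmrp, Rpph1 and AY036118 most, with 42, 93 and 98 counts in WT.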

Other observations

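Replication-dependent histone genes, whose mRNAs end in a stem-loop in place of a poly(A) tail, were mostly lower in KO than in WT. Of 64 genes listed, 11 passed the filter, and 7 of these were at least 2-fold lower in KO than in WT, as were 4.07% of all tested genes, with 0 higher and a median log2 ratio of −1.24. H3c15 had 37, 10 and 9 counts in WT, KO and rescue, H2ac19 had 40, 14 and 16, H2ac23 had 114, 43 and 78, and H2bc4 had 247, 99 and 149. The H2bc4 row is a noncoding transcript model of 2297 bases, and the part of its stem-loop mRNA in these counts was not tested. H2ac11, with 140, 58 and 67 counts, and H2ac12, with 139, 58 and 67, are near-identical genes whose counts may hold the same reads, so the 7 are not all separate measurements. A filter on the mean of the libraries keeps a low gene more easily where 1 library is high. H3c15, at 2.63 CPM in WT and 0.72 CPM in KO, passed through its WT value. Without the filter on low counts the median of the list was −0.71. In rescue against KO the median of the 11 was 0.22. Markers of cycling cells summed to 5801, 4506 and 4539 counts, lower in KO and rescue than in WT, and their part in these values was not tested.

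Among 101 tested microRNA genes, out of 1192 in the tables, the median log2 ratio of KO against WT was 0.08, with 7 genes 2-fold higher and 4 lower. Mir1668 had 746, 255 and 297 counts (−1.52), Mir7225 had 274, 126 and 227, and Mir671 had 101, 46 and 62. Mir5134 had 23, 10 and 15. On the higher side Mir6950 had 36, 85 and 75 counts, Mir155hg, the host transcript of miR-155, had 11, 33 and 39, Mir6990 had 8, 19 and 21, and Mir1a-1hg, a host transcript of the muscle miRNA miR-1, had 7, 16 and 24. For Mir1a-1hg the counting interval of KO against WT, −0.14 to 2.74, includes no difference. Long nuclear noncoding RNAs, 16 tested, had a median of 0.14 with 1 gene 2-fold higher and 1 lower. Pvt1, the noncoding neighbour of Myc, had 325, 764 and 593 counts (1.26), with WT lowest and KO highest. Snhg14, the long host transcript of the imprinted Ube3a region, had 150, 15 and 19 counts (−3.25), low in both libraries from knockout cells. Malat1, a nuclear speckle RNA, had 18057, 21808 and 16369 counts and Neat1, the scaffold of paraspeckles, 4649, 4303 and 3871.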
